A study of Mus musculus with 12 samples.

Results

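The genes described here are 9 regulators and markers of the trophectoderm and the trophoblast derived from it: *Cdx2*, *Eomes*, *Elf5*, *Tfap2a*, *Tfap2c*, *Tead4*, *Ets2*, *Plet1* and *Tpbpa*. They were read wherever the gene name given with the arrays equalled one of these symbols, which gave 12 probes among 55681 and 9 of 34836 gene names. *Cdx2*, *Elf5*, *Tfap2c*, *Tead4*, *Ets2* and *Tpbpa* had 1 probe each, and *Eomes*, *Tfap2a* and *Plet1* had 2. The samples were made to ask if Sox7, a factor of primitive endoderm, has a part when Gata6GR drives ES cells toward that fate, and the 9 genes belong to the other extraembryonic lineage.

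RNA of 4 groups was hybridized to 12 one-colour arrays, 3 for each group. All cells descended from the mouse ES cell line EB3 and carried Gata6GR, a fusion of mouse Gata6 with the ligand-binding domain of the human glucocorticoid receptor, driven by the ubiquitous CAG promoter and moved into the nucleus by dexamethasone (Dex). *Sox7* (+/-) cells were 1 targeted clone in which a puromycin resistance cassette replaced the coding sequence of 1 *Sox7* allele, and *Sox7* (-/-) cells were derived from it by selection at a high dose of puromycin, so the comparison of genotypes is one of single clones. Both genotypes were taken as ES cells without Dex and as XEN-like cells after 4 days with Dex. The titles give day 4 for all 12 arrays, those without Dex included. The titles number the arrays of each group 1 to 3, but the source name of all 3 *Sox7* (+/-) ES arrays reads replicate 1. No source used here says that replicates were separate cultures, so p-values measure the spread between these samples, which may be technical. All 3 *Sox7* (-/-) ES arrays and replicate 1 of *Sox7* (-/-) XEN-like cells were on 1 slide, and the other 8 arrays were on the second slide.

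Trophectoderm is the outer epithelium of the blastocyst and gives rise to the placenta. In the embryo its fate follows when Tead4 and its cofactor Yap act in outer cells, with Cdx2 and Gata3 among the genes turned on. Eomes, Elf5, Tfap2c and Ets2 then act with Cdx2 in the self-renewing trophoblast stem cells of the extraembryonic ectoderm, while in the epiblast lineage the *Elf5* promoter is methylated and silent. Plet1 is a surface protein of early trophoblast progenitors, and *Tpbpa* marks the spongiotrophoblast of the placenta.

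The level of a gene is given as a percent of the 75th percentile of the processed signal on the same array, so levels compare samples for 1 probe and not 1 probe with another. Only probes well above background throughout some group, on 3 of 3 arrays, were tested. A gene was read by its brightest tested probe, and it was called when the adjusted p of the limma fit across all probes was under 0.05 and the difference exceeded 2-fold. Of the 9 genes 7 were tested. *Elf5* and *Tpbpa* were not.

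The 3 genes whose Dex response was called different between the genotypes, *Cdx2*, *Eomes* and *Plet1*, are shown with the 250 bases before their annotated start site, since these are the genes on which the comparison turned. The sequences are those of RefSeq (GRCm38.p6), written 5' to 3' on the strand of the gene. Capitals mark the octamer ATGCAAAT or its reverse complement, a motif bound by POU factors such as Pou5f1.
Cdx2 chr5:147307250-147307499 (-): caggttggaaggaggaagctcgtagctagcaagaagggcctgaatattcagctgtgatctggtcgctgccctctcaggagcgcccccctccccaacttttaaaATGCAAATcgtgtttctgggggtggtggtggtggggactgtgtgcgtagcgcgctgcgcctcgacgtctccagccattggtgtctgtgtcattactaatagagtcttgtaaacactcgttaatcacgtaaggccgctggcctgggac
Eomes chr9:118477939-118478188 (+): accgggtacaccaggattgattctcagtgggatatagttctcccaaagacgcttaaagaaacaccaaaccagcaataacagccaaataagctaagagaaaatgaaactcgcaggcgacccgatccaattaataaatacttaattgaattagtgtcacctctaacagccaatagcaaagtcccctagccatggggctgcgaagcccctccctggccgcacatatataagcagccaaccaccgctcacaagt
Plet1 chr9:50494275-50494524 (+): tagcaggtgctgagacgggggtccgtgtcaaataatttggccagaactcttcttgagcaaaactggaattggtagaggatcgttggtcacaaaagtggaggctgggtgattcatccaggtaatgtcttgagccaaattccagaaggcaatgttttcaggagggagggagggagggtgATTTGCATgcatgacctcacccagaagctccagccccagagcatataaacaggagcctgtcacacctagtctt

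RefSeq windows, which run from 250 bases before to 50 bases after a start site, were found for 7 of the 9 genes, as 9 windows, and *Tfap2c* and *Tead4* had no entry. The octamer, looked for after these sequences had been read, lay on either strand in the windows of *Cdx2*, *Plet1* and *Tpbpa*, beginning 147, 73 and 190 bases before the start. It was found in 1.74% of all 32851 windows. The *Eomes* window held none. Of the other motifs searched on both strands, GATA (the letters GATA preceded by A or T and followed by A or G) was found in 1 of the 9 windows, that of *Elf5*, and in 29.8% of all windows. SOX (AACAAT) was found in none of the 9 and in 3521 of the 32851 windows. TEAD (GGAATG) was found in 1 window of *Elf5* and in 14.7% of all, and AP-2 (GCCNNNGGC) in those of *Cdx2* and *Tpbpa* and in 16.6% of all. *Pou5f1* itself fell with Dex in both genotypes, from 1170.1% ± 35.0 (SD, n = 3) to 103% ± 64.2 in *Sox7* (+/-) cells and from 2257% ± 1093 to 265% ± 158 in *Sox7* (-/-) cells. A motif match describes the letters of a window and is not evidence of binding, and none of these arrays measured binding. Whether Pou5f1 has a part in the levels of these genes was not tested.

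The arrays had a 75th percentile of 252.3 to 415.9 intensity units, 41.7% to 52.3% of spots well above background and no saturated spot. Replicates correlated at 0.982 or higher over the tested probes, the lowest value being within *Sox7* (+/-) XEN-like cells. *Sox7* was at 224% ± 5.42 and 558% ± 113 in *Sox7* (+/-) ES and XEN-like cells and was not well above background on any of the 6 *Sox7* (-/-) arrays. Primitive endoderm markers were induced in both genotypes. After Dex 6 of 8 extraembryonic endoderm markers were called higher in *Sox7* (+/-) cells, against 11.0% of all genes. In *Sox7* (-/-) cells 7 of 8 were, against 14.6% of all genes. *Sox17*, a factor of that lineage, went from 1054% ± 85.1 (SD, n = 3) to 5834% ± 735 and from 1157% ± 59.8 to 6150.0% ± 624. *Gata6* was not called in either genotype (log2 difference 0.27 and 0.37). Its probe was already at 1307% in *Sox7* (+/-) and 1887% in *Sox7* (-/-) ES cells. Whether this probe also reads the Gata6GR transgene was not determined. Scaling mattered for the balance of calls over all probes. In the Dex response of *Sox7* (+/-) cells 2851 probes were higher and 3620 lower, against 1263 and 5461 when arrays were scaled by spike-in controls and 850 and 3486 in the unscaled deposited table. Between XEN-like cells 1000 probes were higher and 946 lower in *Sox7* (-/-), against 1644 and 496 by spike-ins and 1164 and 131 in the table. For the difference in Dex response the numbers were 1718 and 822, against 3063 and 349 and against 1899 and 222. Spike-in scaling moved the median of all tested probes in the Dex response of *Sox7* (+/-) cells from 0.16 to -0.33 on the log2 scale.

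In *Sox7* (+/-) cells trophectoderm genes fell with Dex. *Cdx2*, *Eomes*, *Tfap2a*, *Tfap2c* and *Plet1* were lower after Dex, none of the 7 tested genes was called higher, and *Tead4* and *Ets2* differed by less than 2-fold. Over all 18992 genes tested 14.1% were called lower and 11.0% higher. The median log2 difference was -1.58 for the 7 genes and 0.16 for all genes. These are bulk samples, in which fewer cells of a type and less RNA per cell cannot be told apart.

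In *Sox7* (-/-) cells fewer of these genes were called. *Tfap2a* and *Tfap2c* were lower with Dex among the 7 tested genes, none was called higher, and 14.1% of all genes were called lower and 14.6% higher. The median log2 difference was 0.31 for the 7 genes and 0.07 for all genes. *Cdx2* and *Plet1* were not called, and *Eomes*, *Tead4* and *Ets2* passed the adjusted p with differences upward of less than 2-fold.

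**Figure D1:**
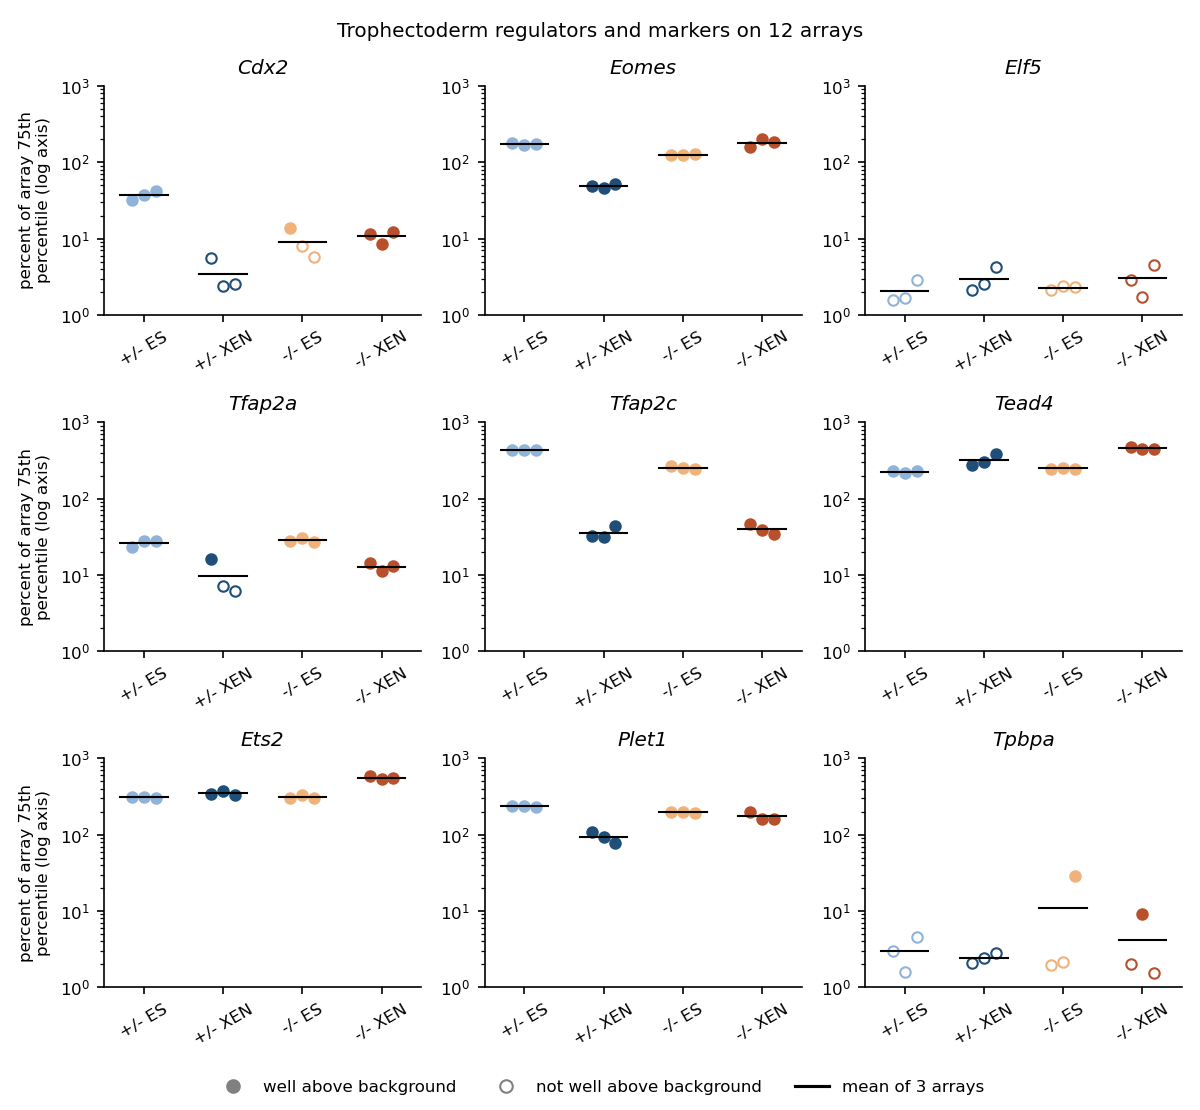
Level of each gene by its brightest probe on every array, as a percent of the 75th percentile of that array on a log axis, for *Sox7* (+/-) and (-/-) ES and XEN-like cells. Filled points are well above background, open points are not, and bars are means of 3 arrays. *Tfap2c* dropped in both genotypes, whereas *Eomes* dropped from about 175% to 48.7% in *Sox7* (+/-) cells alone, and *Elf5* was open on all 12 arrays.

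*Cdx2*, the homeobox factor that establishes trophectoderm, was read by a probe at chr5:148112547-148112606 (mm9, - strand). Its level was 31.7%, 37.8% and 42.7% on the 3 *Sox7* (+/-) ES arrays, and 5.49%, 2.37% and 2.57% on the *Sox7* (+/-) XEN-like arrays, none of which was well above background. It was 13.6%, 7.94% and 5.80% in *Sox7* (-/-) ES cells, where only replicate 1 was well above background, and 11.5%, 8.43% and 12.3% in *Sox7* (-/-) XEN-like cells, where all 3 were. *Sox7* (+/-) ES cells thus stood above all other groups without overlap, and the 2 *Sox7* (-/-) groups overlapped. With Dex *Cdx2* fell in *Sox7* (+/-) cells, with an adjusted p of 1.31e-05 in the limma fit. The fall was at least 3.40-fold with each XEN-like array set to its lowest signal well above background of any probe. In *Sox7* (-/-) cells the log2 difference was 0.31 (SE 0.36, 95% interval -0.50 to 1.12, adjusted p = 0.471). The fitted difference between these responses was 3.84 on the log2 scale (SE 0.51, adjusted p = 4.71e-04). Its size rests on 2 groups mostly at background, and it was 1.13 with normexp background correction (a model that keeps dim signals positive) and 1.77 in the deposited table, called in both.

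*Eomes*, a T-box factor needed for trophoblast stem cells and also active in the primitive streak, was read at chr9:118394425-118394484 (mm9, + strand). The 3 *Sox7* (+/-) ES arrays gave 179%, 170% and 176%, and the 3 *Sox7* (+/-) XEN-like arrays 49.1%, 45.6% and 51.4%. The *Sox7* (-/-) ES arrays gave 123%, 123% and 127% and the *Sox7* (-/-) XEN-like arrays 159%, 201% and 183%. *Eomes* was therefore lowest in *Sox7* (+/-) XEN-like cells, and *Sox7* (+/-) ES and *Sox7* (-/-) XEN-like cells overlapped at the top. It fell 3.59-fold with Dex in *Sox7* (+/-) cells (log2 -1.85, SE 0.09, adjusted p = 3.86e-08). In *Sox7* (-/-) cells it was 1.45-fold higher after Dex (log2 0.54, SE 0.09, adjusted p = 3.25e-04), under the 2-fold limit, and the responses differed by 2.38 (SE 0.12, adjusted p = 9.90e-07). The second probe, at chr9:118395189-118395248, was dim and not tested. It lay between 2.37% and 16.5% and was well above background on 2 of 3 arrays of every group except *Sox7* (+/-) XEN-like cells, where it was on none.

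*Plet1* was read at chr9:50313107-50313166 (mm9, + strand). Its level was 240%, 236% and 229% in *Sox7* (+/-) ES cells and 108%, 94.2% and 78.6% in *Sox7* (+/-) XEN-like cells. The *Sox7* (-/-) arrays gave 197%, 197% and 195% without Dex and 200%, 160% and 163% with it. The 2 *Sox7* (-/-) groups overlapped, and *Sox7* (+/-) XEN-like cells lay below all others. *Plet1* fell 2.53-fold in *Sox7* (+/-) cells (log2 -1.34, SE 0.12, adjusted p = 4.07e-06), its log2 difference in *Sox7* (-/-) cells was -0.18 (SE 0.12, 95% interval -0.44 to 0.09, adjusted p = 0.212), and the responses differed by 1.17 (SE 0.17, adjusted p = 7.38e-04). The value in *Sox7* (-/-) cells changed sign, to 0.032, within the slide that held all 3 ES arrays and 1 XEN-like array. A second, dim probe at chr9:50307294-50307353 was also called lower with Dex in *Sox7* (+/-) cells (log2 -1.34, adjusted p = 0.0269), though its groups overlapped, and for the difference in response it was not called (1.54, adjusted p = 0.105).

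**Figure D2:**
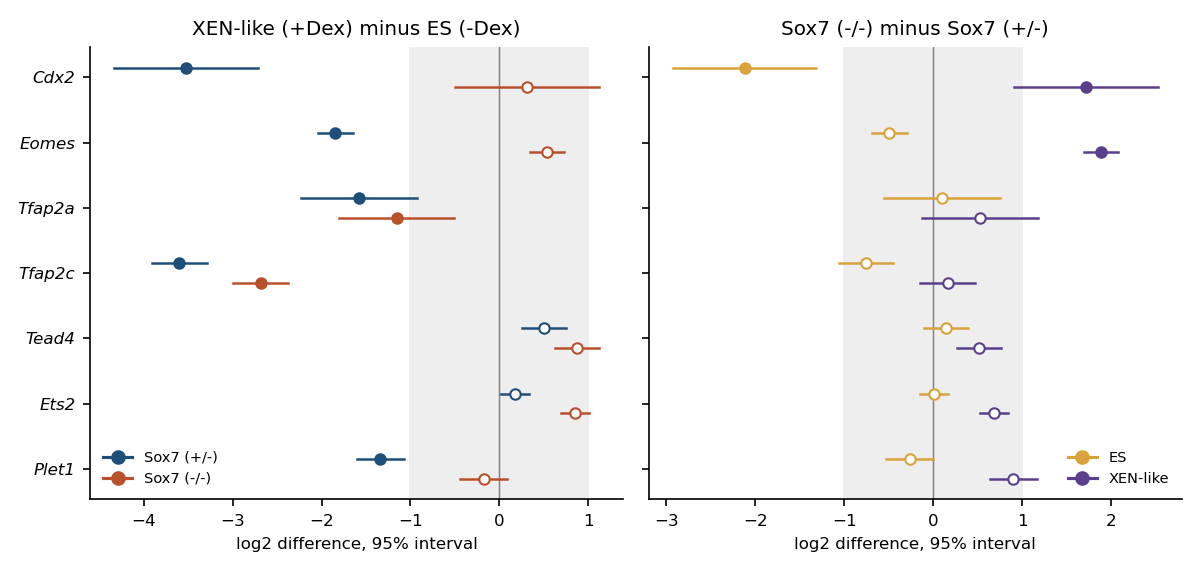
Log2 differences of the 7 tested genes with 95% intervals of the limma fit, for Dex in each genotype (left) and for *Sox7* (-/-) minus *Sox7* (+/-) in each state (right). Filled points were called, open points were not, and the grey band marks less than 2-fold. *Cdx2*, *Eomes* and *Plet1* were called lower with Dex in *Sox7* (+/-) cells only, and their difference in response was called; *Tfap2c* and *Tfap2a* lay left of the band in both genotypes.

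Both AP-2 factors were called lower with Dex in both genotypes. *Tfap2c*, which acts with Cdx2 and Eomes in trophoblast stem cells and is also a germ cell factor, was read at chr2:172383860-172383919 (mm9, + strand). It was at 429% on each of the 3 *Sox7* (+/-) ES arrays and at 31.8%, 31.7% and 43.6% after Dex. In *Sox7* (-/-) cells it went from 268%, 250% and 247% to 46.9%, 38.3% and 34.6%. The XEN-like groups overlapped and lay far below both ES groups. The falls were 12.1-fold (log2 -3.60, SE 0.14, adjusted p = 8.53e-09) and 6.43-fold (log2 -2.68, SE 0.14, adjusted p = 5.44e-08). Their difference, 0.92 (SE 0.20, adjusted p = 0.00691), passed the adjusted p but not 2-fold.

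*Tfap2a*, a paralog with roles in trophoblast and surface ectoderm, was read at chr13:40811044-40811103 (mm9, - strand). Levels were 23.5%, 28.1% and 27.9% in *Sox7* (+/-) ES cells and 16.0%, 7.03% and 6.13% in *Sox7* (+/-) XEN-like cells, only the first of which was well above background. They were 27.7%, 30.6% and 26.9% in *Sox7* (-/-) ES cells and 14.2%, 11.2% and 12.96% in *Sox7* (-/-) XEN-like cells. ES and XEN-like cells did not overlap in either genotype, and the genotypes overlapped in both states. The log2 differences with Dex were -1.58 (SE 0.29, adjusted p = 8.77e-04) and -1.16 (SE 0.29, adjusted p = 0.00533), and the difference between them, 0.42 with a 95% interval of -0.50 to 1.34, was not called. With normexp background correction and in the deposited table neither fall reached 2-fold, and with slide as a block the fall in *Sox7* (-/-) cells was not called (-1.002, adjusted p = 0.0788). The probe named for variant 1 of the transcript (chr13:40829040-40829099) was not well above background on any array.

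*Tead4* and *Ets2* were the 2 tested genes whose levels were not called lower in either genotype. *Tead4*, the DNA-binding partner of Yap and the earliest acting factor of the set, was read at chr6:128177161-128177220 (mm9, - strand). It was at 226%, 218% and 226% in *Sox7* (+/-) ES cells and at 273%, 300% and 386% in *Sox7* (+/-) XEN-like cells. The *Sox7* (-/-) arrays gave 246%, 254% and 242% and then 475%, 440% and 448%, above all other arrays. The log2 differences were 0.50 (SE 0.11, adjusted p = 0.00263) and 0.88 (SE 0.11, adjusted p = 5.05e-05), both under 2-fold, and their difference was not called (0.37, adjusted p = 0.107).

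*Ets2*, an ETS factor required in extraembryonic ectoderm, was read at chr16:95942227-95942286 (mm9, + strand). Its level was 311%, 313% and 301% in *Sox7* (+/-) ES cells and 346%, 375% and 328% in XEN-like cells of that genotype. In *Sox7* (-/-) cells it was 301%, 327% and 305% and then 587%, 540% and 557%. The *Sox7* (-/-) XEN-like arrays again lay above all others, while the ES groups overlapped. The log2 difference was 0.18 in *Sox7* (+/-) cells (SE 0.07, adjusted p = 0.0472), a sign that turned to -0.30 under spike-in scaling and -0.28 in the deposited table, and 0.85 in *Sox7* (-/-) cells (SE 0.07, adjusted p = 2.05e-06). The responses differed by 0.67 (SE 0.10, adjusted p = 9.12e-04), which is under 2-fold.

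*Elf5* and *Tpbpa* were not well above background in most samples. *Elf5*, read at chr2:103290958-103291017 (mm9, + strand), lay between 1.57% and 4.54% on the 12 arrays and was not well above background on any. *Tpbpa*, at chr13:61040246-61040305 (mm9), was well above background on 2 arrays, at 28.7% in replicate 3 of *Sox7* (-/-) ES cells and at 9.02% in replicate 2 of *Sox7* (-/-) XEN-like cells. The other 10 arrays lay between 1.56% and 4.51%. Of 8 genes listed as defining markers of trophoblast (*Cdx2*, *Eomes*, *Elf5*, *Tfap2c*, *Gata3*, *Hand1*, *Tpbpa* and *Prl3d1*), 6 were well above background on all 3 *Sox7* (+/-) ES arrays and 3 on all 3 *Sox7* (+/-) XEN-like arrays. The numbers were 4 in ES and 5 in XEN-like cells of the *Sox7* (-/-) genotype. The summed level of the 8 ranged over 801% to 815%, 223% to 292%, 439% to 456% and 540% to 628% in these 4 groups.

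Between the genotypes the XEN-like cells differed in *Cdx2* and *Eomes*, both called higher in *Sox7* (-/-) cells. That is 2 of 7 higher and none lower, where 4.15% of all genes were called higher and 3.41% lower. The median log2 difference was 0.68 for the 7 genes and 0.01 for all genes. *Eomes* was 3.71-fold higher (log2 1.89, SE 0.09, adjusted p = 5.63e-07), and within the slide that held 3 *Sox7* (+/-) and 2 *Sox7* (-/-) XEN-like arrays the value was 1.98 (adjusted p = 8.04e-05). *Cdx2* had a fitted log2 difference of 1.72 (SE 0.36, adjusted p = 0.00547), but the floor set by background in *Sox7* (+/-) XEN-like cells reaches the *Sox7* (-/-) level, so no fold is given, and with normexp background correction (0.17) and in the deposited table (0.68) it was not called. *Tead4* (0.52, adjusted p = 0.00571), *Ets2* (0.68, adjusted p = 8.02e-05) and *Plet1* (0.90, adjusted p = 3.53e-04) passed the adjusted p in the same direction, under 2-fold. *Plet1* was over 2-fold by spike-in scaling (1.15), in the deposited table (1.18) and without *Sox7* (+/-) XEN-like replicate 1 (1.01). *Ets2* was also over 2-fold in the deposited table, and was at most 1.10 over the other settings. The AP-2 factors were not called (0.53 and 0.17).

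In ES cells without Dex *Cdx2* alone was called, lower in *Sox7* (-/-) cells. That is 1 of 7 lower and none higher, where 6.63% of all genes were called lower and 1.97% higher, with a median log2 difference of -0.26 for the 7 genes and 0.11 for all. *Cdx2* had a log2 difference of -2.12 (SE 0.36, adjusted p = 0.00115), with only 1 of the 3 *Sox7* (-/-) ES arrays well above background. It was -0.96 with normexp background correction, where it was not called, and -1.08 in the deposited table. *Eomes* (-0.49, adjusted p = 0.00143) and *Tfap2c* (-0.75, adjusted p = 0.00171) differed in the same direction by less than 2-fold. All *Sox7* (-/-) ES arrays were on one slide and all *Sox7* (+/-) ES arrays on the other, and only the *Sox7* (-/-) XEN-like arrays, which were on both, separate slide from genotype. With slide as a block *Cdx2* was at -2.29 with an adjusted p of 0.0621, and *Tfap2c* at -1.12 with an adjusted p of 0.0121, which passed 2-fold.

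Over both states the Dex response of *Sox7* (-/-) cells lay above that of *Sox7* (+/-) cells for 3 of 7 genes and below for none, where 7.05% of all genes were called higher and 3.16% lower. The median was 0.92 for the 7 genes and -0.10 for all. The comparisons share arrays, so a low *Sox7* (+/-) XEN-like value enters the Dex response, the genotype difference and the difference in response alike.

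Markers of other cell types moved with some of these differences. Of 6 tested primitive streak markers 4 had lower levels in *Sox7* (-/-) ES cells than in their *Sox7* (+/-) counterpart, where 6.63% of all genes were called lower, and all 6 fell with Dex in *Sox7* (+/-) cells, where 14.1% of all genes did. Most of these markers are dim, and the counts were 2 between ES cells and 2 for Dex with normexp background correction, and 2 and 3 in the deposited table. *T* (brachyury) was at 65.9% ± 9.55 (SD, n = 3) in *Sox7* (+/-) ES cells and not well above background on any array of the other groups, as were *Wnt3*, at 18.5% ± 2.76, and *Evx1*, at 12.6% ± 1.98. *Fgf8* was at 102% ± 5.23 in *Sox7* (+/-) ES cells and at 12.9% to 14.8% on average in the others. *Gsc*, a homeobox factor of the streak, did not follow, with 14.9% ± 2.53 in *Sox7* (+/-) and 15.4% ± 0.476 in *Sox7* (-/-) ES cells and falls of 2.57 and 2.70 on the log2 scale. No streak marker was well above background on all XEN-like arrays of either genotype, so the sizes of these falls depend on signals near background. All 6 tested were well above it on every *Sox7* (+/-) ES array, and 2 on every *Sox7* (-/-) ES array. The filter thus took in most of them through *Sox7* (+/-) ES cells alone. It favours the lower calls counted here, which are a description and not a test. *Lhx1* was not called between ES cells (log2 -0.38), and *Mixl1* was not well above background on any array. Between XEN-like cells, where *Eomes* and *Cdx2* were called higher in *Sox7* (-/-), none of the 6 streak markers was called (median log2 -0.088). There 4.15% of all genes were called higher and 3.41% lower. The summed level of the 8 listed markers was 224% to 247% in *Sox7* (+/-) ES cells, 30.7% to 35.2% in *Sox7* (+/-) XEN-like cells, 54.0% to 56.7% in *Sox7* (-/-) ES cells and 24.8% to 45.2% in *Sox7* (-/-) XEN-like cells. The summed level, like *Cdx2*, was highest in *Sox7* (+/-) ES cells, and the part of these cells in the *Cdx2* difference was not tested.

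Visceral endoderm markers followed the XEN-like difference. All 5 tested (*Hnf4a*, *Ihh*, *Ttr*, *Cubn* and *Amn*) were higher in *Sox7* (-/-) XEN-like cells and had a higher Dex response there, where 4.15% and 7.05% of all genes were called higher. Between ES cells *Ihh*, *Ttr* and *Cubn* were called lower in *Sox7* (-/-) cells (log2 -2.21, -2.92 and -1.11), values that enter the difference in response, while *Afp* and *Apoa1* were not well above background on any array. *Amn*, a subunit of the cubilin receptor, was at 516% ± 77.2 in *Sox7* (+/-) and 4675% ± 395 in *Sox7* (-/-) XEN-like cells, and *Cubn* at 1296% ± 619 and 7148% ± 338. With Dex 2 of the 5 rose and 2 fell in *Sox7* (+/-) cells, where 11.0% of all genes were called higher and 14.1% lower. All 5 rose in *Sox7* (-/-) cells, where 14.6% were called higher. The summed level of the list was 7430% to 7668% in *Sox7* (+/-) ES and 6290% to 6383% in *Sox7* (+/-) XEN-like cells. It was 3801% to 4435% in *Sox7* (-/-) ES and 21745% to 23523% in *Sox7* (-/-) XEN-like cells. *Eomes* is also transcribed in visceral endoderm of the embryo, and the part of these cells in the *Eomes* difference was not tested.

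**Figure D3:**
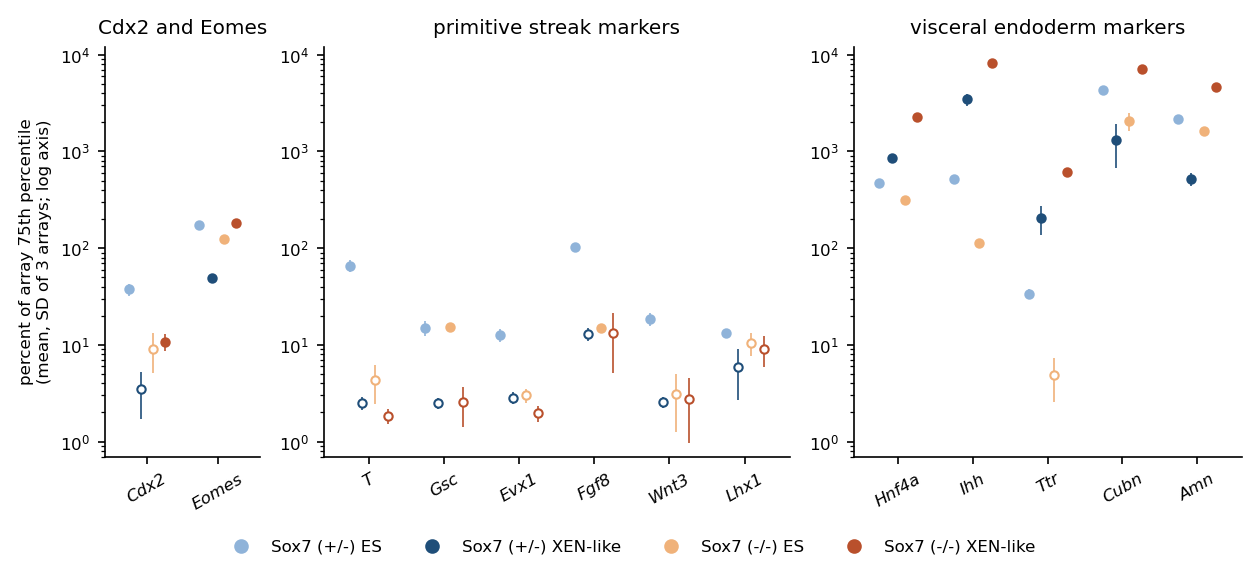
Mean and SD of 3 arrays, as a percent of the 75th percentile on a log axis, for *Cdx2* and *Eomes* beside the tested primitive streak and visceral endoderm markers in the 4 groups. Filled points are groups with all 3 arrays well above background. *T*, *Wnt3*, *Evx1* and *Fgf8* share with *Cdx2* a highest value in *Sox7* (+/-) ES cells, *Gsc* is alike in both ES groups, and the 5 visceral endoderm markers are highest in *Sox7* (-/-) XEN-like cells.

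Other regulators of trophoblast stem cells and extraembryonic ectoderm moved in both directions. Of 18 tested, 3 rose and 8 fell with Dex in each genotype. The 3 of 18 that rose are a share near the 11.0% and 14.6% of all genes called higher, and the 8 that fell stand beside 14.1% of all genes called lower in each genotype. In *Sox7* (+/-) cells 1 rose and 10 fell by spike-in scaling and in the deposited table. *Esrrb*, *Nr0b1* and *Bmp4*, which are also expressed in ES cells, had the largest falls, *Esrrb* going from 7724% ± 224 to 16.9% ± 1.60 in *Sox7* (+/-) cells and from 18752% ± 1293 to 418% ± 23.8 in *Sox7* (-/-) cells. The 3 that rose were the same in both genotypes, *Gata2*, *Gata3* and *Id2*, and 3 of 18 were called in the difference in response, *Esrrb*, *Gata3* and *Id2*, each higher in *Sox7* (-/-) cells. *Gata3*, a GATA factor that works in parallel to Cdx2, went from 69.1% ± 9.77 to 146% ± 40.6 in *Sox7* (+/-) cells (log2 1.05, adjusted p = 0.00120) and from 17.6% ± 3.17 to 332% ± 28.2 in *Sox7* (-/-) cells (log2 4.25, adjusted p = 3.26e-08). In *Sox7* (+/-) cells the rise of *Gata3* was called in 1 and that of *Id2* in 3 of 5 alternative background corrections and scalings, with no change of direction. *Gata2*, its relative in trophoblast, went from 19.1% ± 2.18 to 260% ± 46.1 and from 9.59% ± 1.49 to 90.7% ± 12.7, and was lower in *Sox7* (-/-) XEN-like cells (log2 -1.52, adjusted p = 1.10e-04). Both GATA factors are also active outside trophoblast. Between XEN-like cells 4 of 18 were higher and 1 lower in *Sox7* (-/-), and between ES cells 3 were higher and 3 lower. Over all genes 4.15% were called higher and 3.41% lower between XEN-like cells, and 1.97% and 6.63% between ES cells. For a higher response in *Sox7* (-/-) cells the share was 7.05%.

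Of 12 genes of the Hippo pathway and the Tead family, 1 (*Lats2*) rose with Dex in *Sox7* (+/-) cells and 6 rose in *Sox7* (-/-) cells, where 11.0% and 14.6% of all genes were called higher. By spike-in scaling and in the deposited table none rose and 2 fell in *Sox7* (+/-) cells, and in *Sox7* (-/-) cells 6 and 4 rose. *Yap1* and *Wwtr1*, the cofactors that bind Tead4, were not called (log2 0.46 and 0.90 in *Sox7* (+/-), 0.52 and 0.69 in *Sox7* (-/-) cells). *Tead3* and the junction protein *Amot*, which holds Yap at the membrane, were called in the difference in response. *Amot* went from 2381% ± 157 to 1528% ± 210 in *Sox7* (+/-) cells and from 1689.5% ± 170 to 5365% ± 130 in *Sox7* (-/-) cells. *Amot* was also the 1 gene of the list called between XEN-like cells, and *Tead3* the 1 called, lower, between ES cells. *Tead3* was not well above background on any *Sox7* (-/-) ES array (mean 6.62%), so both of its differences depend on background. With normexp background correction 1 of the 12 was called in the difference in response and none between ES cells. Over all genes 4.15% were called higher between XEN-like cells, 6.63% lower between ES cells and 7.05% for a higher response.

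Genes of the trophectoderm epithelium were 2 of 14 higher and 4 lower with Dex in *Sox7* (+/-) cells, and 7 higher and 1 lower in *Sox7* (-/-) cells, with 8 of 14 called for a higher response in *Sox7* (-/-) cells. Of all genes 11.0% and 14.1% were called higher and lower in *Sox7* (+/-) cells, 14.6% and 14.1% in *Sox7* (-/-) cells, and 7.05% for a higher response. In *Sox7* (+/-) cells 1 was higher and 7 were lower by spike-in scaling, and 0 and 6 in the deposited table, with 7 higher under both in *Sox7* (-/-) cells. Between ES cells 7 of 14 were lower in *Sox7* (-/-), among them the keratins *Krt7*, *Krt8*, *Krt18* and *Krt19*, and between XEN-like cells 2 were higher, the claudin *Cldn6* and the aquaporin *Aqp3*. Over all genes 6.63% were called lower between ES cells and 4.15% higher between XEN-like cells. The ES groups were on different slides, and no slide block was run for the gene lists besides the 9 genes. *Krt18* was at 23560.3% ± 1213 in *Sox7* (+/-) and 2926% ± 118 in *Sox7* (-/-) ES cells, and at 14353% ± 851 and 14417% ± 951 in XEN-like cells. *Krt7* was at 108% ± 2.16, 11.1% ± 3.11, 19.4% ± 3.76 and 20.9% ± 7.14 in *Sox7* (+/-) ES, *Sox7* (+/-) XEN-like, *Sox7* (-/-) ES and *Sox7* (-/-) XEN-like cells. These keratins and claudins belong to simple epithelia in general, extraembryonic endoderm included.

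Of 22 genes of differentiated trophoblast 21 were on the array and 14 were tested. With Dex 1 rose and 5 fell in *Sox7* (+/-) cells, 5 rose and 4 fell in *Sox7* (-/-) cells, and 9 were called for a higher response in *Sox7* (-/-) cells. The 1 of 14 that rose in *Sox7* (+/-) cells is below the 11.0% of all genes called higher, and the other shares over all genes are 14.1% lower there, 14.6% higher and 14.1% lower in *Sox7* (-/-) cells, and 7.05% for a higher response. The 4 include *Cebpa*, which was not well above background in either group. *Ascl2*, a spongiotrophoblast factor, went from 345% ± 3.002 to 16.1% ± 4.37 in *Sox7* (+/-) cells and from 204% ± 6.70 to 73.7% ± 6.42 in *Sox7* (-/-) cells. *Phlda2*, an imprinted gene of placental growth, went from 155% ± 11.6 in *Sox7* (+/-) ES cells to a level not well above background on any XEN-like array of that genotype, and from 133% ± 13.8 to 18.1% ± 2.92 in *Sox7* (-/-) cells. *Hand1*, a giant cell factor, was at 78.3% ± 11.7 and 24.2% ± 1.37 in ES cells and was not well above background on any XEN-like array. The homeobox gene *Rhox6* was at 483% ± 59.8 and 603% ± 179 in *Sox7* (+/-) cells, and rose from 153% ± 19.7 to 1965% ± 151 in *Sox7* (-/-) cells. Of the placental hormone genes *Prl3b1* was dim but well above background on all 12 arrays, at group means of 16.6% to 18.9%, and *Prl3d1* on 7 arrays, and neither was called in any comparison. *Prl8a9*, *Prl7a1*, *Ctsq*, *Tpbpb* and *Syna* were not well above background on any array. Between XEN-like cells 7 were higher and 1 lower in *Sox7* (-/-), the 7 including *Hand1*, not well above background in either group, and between ES cells 6 were lower. Over all genes 4.15% were called higher and 3.41% lower between XEN-like cells, and 6.63% lower between ES cells. The probe read for *Gcm1* lies on chromosome 7 while the gene is on chromosome 9, so *Gcm1* is not described, and the counts of called genes are the same without it.

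**Figure D4:**
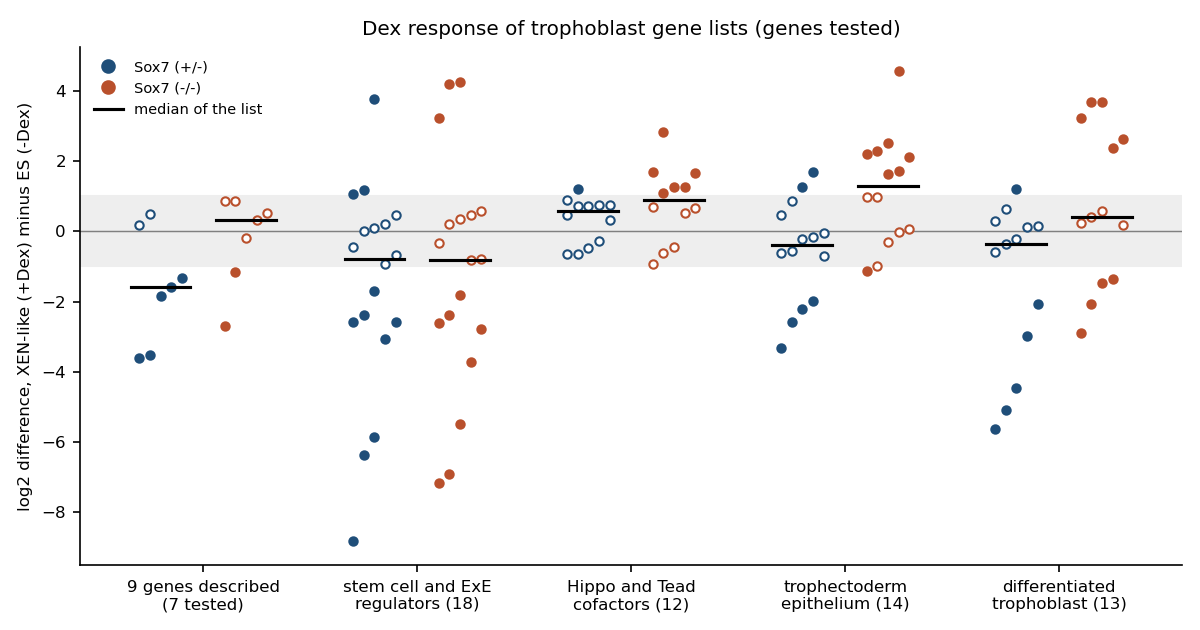
Log2 difference between XEN-like and ES cells for every tested gene of 5 lists, in *Sox7* (+/-) and *Sox7* (-/-) cells, with *Gcm1* left out. Filled points were called, black bars are medians and the grey band marks less than 2-fold. The lists of epithelium and differentiated trophoblast have points above the band mostly in *Sox7* (-/-) cells, 7 of 14 and 5 of 13, against 2 and 1 in *Sox7* (+/-) cells.

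For each tested gene the 3 genes with the most similar pattern were found by Pearson correlation over the 12 arrays among 18962 other genes. The arrays form 4 groups, so these values mostly describe group means, and they are descriptions without a test. *Cdx2* was most like *Cpb2* (r = 0.980), *Krt20* (0.969) and *Sema3b* (0.960), and *Eomes* most like *Slc39a4* (0.982), *Hesx1* (0.979) and *Ralgds* (0.977). *Plet1* was most like *Ank2* (0.984), *Hif3a* and *Gstt2* (0.979 each), *Tfap2c* most like *Parp10* (0.995), *Parp9* and *Tmcc3* (0.993 each), and *Tfap2a* most like *Rgs14* (0.978), *BU705217* (0.969) and *Stk31* (0.968). For *Tead4* they were *Akr7a5* (0.986), *Dbi* and *Fam109a* (0.985 each), and for *Ets2* they were *Top1mt* (0.990), *Ehmt2* (0.986) and *Gltpd2* (0.985). None of the 7 tested genes was among the 3 most similar to another, and *Elf5* and *Tpbpa* were not among the genes compared.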

How the data were processed

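The authors hybridized RNA of 12 samples, 3 in each of 4 groups, to Agilent SurePrint mouse arrays in 1 colour. For every array they deposited intensity values as written by Agilent Feature Extraction (10.7.3.1 in the submitters' processing notes), including a processed signal from which background had been removed and which carries no scaling from array to array. Linear intensity values of all arrays were also deposited as 1 table, used as an alternative, whose entries lie within 0.50% of the mean spot signal. Probe positions come with the arrays (mm9), and whether a probe lies in an exon or UTR was not determined.

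Of 59305 spots besides controls those marked as outliers were left out, and spots of a probe were averaged as log2 values, from which each array's 75th percentile was subtracted. Of 55681 probes 25940 were well above background throughout at least 1 group. These entered 1 limma fit of all arrays (limma 3.58.1, R 4.3.3) that estimated a mean for each group, had 1.99 prior degrees of freedom and gave 5 comparisons. P-values were adjusted by Benjamini-Hochberg over all tested probes in each comparison. A bound ("at least") sets the mean of the brighter group against the higher of the dim probe and the lowest signal well above background on each array. That signal is the lowest of any probe, and some probes over it were not well above background, so the bound is approximate. The number of arrays limits the precision, and signal over background limits dim probes. The fit was tested on simulated data.

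The 9 genes, the trophoblast lists (stem cell and extraembryonic ectoderm regulators, Hippo and Tead cofactors, epithelium, differentiated trophoblast) and the markers of ES cells, extraembryonic and visceral endoderm, trophoblast, primitive streak, surface ectoderm and germ cells were chosen with earlier results of these data known. Every one of the 9 genes is named, and in each list mainly called genes with the largest differences whose groups do not overlap, plus markers needed to describe the cells. Genes named besides these (*Krt8*, *Krt19*, *Yap1*, *Wwtr1* and genes not above background) were chosen after their values were seen. Alternatives changed the background correction, the scaling, the filter, the variance trend, the arrays used, blocks for slide and replicate number, and the probe read, and each array was left out in turn. Keeping outlier spots, and leaving out genes whose probe lies on another chromosome, were added after the data had been seen.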

Additional observations from a re-analysis of the deposited data

Results flagged for a closer look

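The Dex response of 5 genes differed between the genotypes by the interaction term of the limma fit, each with the higher value in *Sox7* (-/-) cells. The differences on the log2 scale were 3.84 for *Cdx2*, 2.38 for *Eomes*, 1.17 for *Plet1*, 0.92 for *Tfap2c* and 0.67 for *Ets2*. The size for *Cdx2* depends on the treatment of background, since 2 of its 4 groups were mostly at background, and over the other settings it ranged from 1.13 to 4.24, against 1.92 to 2.78 for *Eomes*, so the order of these genes is not fixed. For *Tfap2c* and *Ets2* the difference was under 2-fold, and both exceeded it under spike-in scaling (1.32 and 1.08) and in the deposited table (1.11 and 1.06). *Tfap2c* also exceeded it by quantile normalization. It did so too without replicate 3 of *Sox7* (+/-) XEN-like cells (1.07) or of *Sox7* (-/-) XEN-like cells (1.01). Groups of 3 arrays are too small for a test of outlying samples.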

How the results depend on the processing

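Of 844 values of the tested genes under the alternatives 807 kept direction and call, and of 312 that were called 303 stayed called in the same direction. Of the tested genes 5, 2, 2, 1 and 3 were called for Dex in *Sox7* (+/-) cells, Dex in *Sox7* (-/-) cells, XEN-like cells, ES cells and the difference in response. With normexp background correction 1 was called for Dex in *Sox7* (-/-) cells, 1 between XEN-like and 0 between ES cells. Among probes above background on all 12 arrays, which leaves out *Cdx2* and *Tfap2a*, 3, 1, 1 and 0 were called in the first 4. In the deposited table a single gene (1) was called for Dex in *Sox7* (-/-) cells and 5 in the difference in response, where spike-in scaling also gave 5. Between XEN-like cells each of these settings gave 3. The slide block left 1 for Dex in *Sox7* (-/-) cells, where *Tfap2a* was at -1.002 (adjusted p = 0.0788). Leaving out 1 array gave 5, 2, 2 to 3, 1 and 3 to 4. Same-numbered samples did not deviate together (r from -0.05 to 0.13), and with a replicate block the counts were again 5, 2, 2, 1 and 3, with no call changed.

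Sign changes were limited to values that were not called. *Tfap2a* with normexp was at -0.031 between XEN-like cells and -0.088 in the difference in response, and between ES cells it was at -0.049 by spike-ins and -0.13 with the slide block. *Ets2* in ES cells was at -0.093 by quantile normalization, -0.14 by spike-ins, -0.047 by median scaling, -0.088 with the slide block, and -0.0077 and -0.027 without *Sox7* (+/-) ES replicate 3 or *Sox7* (-/-) ES replicate 2, within a range of -0.027 to 0.034 over single arrays left out. *Ets2* with Dex in *Sox7* (+/-) cells was at -0.30 by spike-ins and -0.28 in the deposited table. *Tead4* in ES cells was at -0.0045 by spike-ins, and *Plet1* with Dex in *Sox7* (-/-) cells at 0.032 with the slide block and within slide 1 alone. The causes were not tested.

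Over all probes 6471, 7475, 1946, 2235 and 2540 were called in the 5 comparisons, against 3459, 4625, 708, 901 and 1388 with normexp and 3177, 4124, 930, 855 and 1261 among probes above background on all arrays, where 19444 were tested. The deposited table gave 1295 between XEN-like and 1033 between ES cells, and without the filter 5425 were called in the difference in response.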

Other observations

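Markers of surface ectoderm and germ cells, where AP-2 factors are also expressed, were read beside *Tfap2a* and *Tfap2c*. Of 6 tested germ cell markers 5 fell with Dex in *Sox7* (+/-) cells and 4 in *Sox7* (-/-) cells, and none rose. All 6 were well above background on every ES array, and in each genotype 3 were on no XEN-like array. For such genes the filter favours lower calls. Over all genes 14.1% were called lower in each genotype. *Prdm14*, a factor shared by ES and germ cells, went from 213% ± 4.60 (SD, n = 3) of the 75th percentile in *Sox7* (+/-) ES cells and 421% ± 18.9 in *Sox7* (-/-) ES cells to levels not well above background on any XEN-like array. *Prdm1*, which acts with *Tfap2c* in germ cell precursors, was at 74.4% ± 7.66 and 45.1% ± 3.34 in ES cells and not well above background on any XEN-like array either. Of 6 tested surface ectoderm and neural crest markers 2 fell in *Sox7* (+/-) cells, and 1 rose and 2 fell in *Sox7* (-/-) cells. The 1 of 6 that rose is near the 14.6% of all genes called higher in *Sox7* (-/-) cells, a share that was 11.0% in *Sox7* (+/-) cells. *Grhl3*, a factor of surface epithelium, went from 167% ± 14.6 to 10.5% ± 3.26 and from 269% ± 5.01 to 23.1% ± 2.05. *Trp63*, the basal epithelial factor, was at 1247% ± 13.7 in *Sox7* (+/-) and 383% ± 26.96 in *Sox7* (-/-) ES cells, and at 782% ± 175 and 512% ± 32.8 in XEN-like cells. ES cell markers fell with Dex in both genotypes except *Klf4* and *Tdgf1*. *Klf4* rose in *Sox7* (+/-) cells (log2 1.46) and in *Sox7* (-/-) cells differed upward by less than 2-fold (0.50, not called). *Tdgf1* was not called in *Sox7* (+/-) cells (-0.67).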
